A study of Rattus norvegicus with 18 samples.

Results

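Macrophages sit in the connective tissue around kidney tubules, and their transcripts can be measured in RNA from dissected tubule segments. The 8 genes described here are Lyz2, Fcer1g, Cd68, Csf1r, C1qa, C1qb, C1qc and Adgre1, all widely used to mark macrophages. They were picked by gene symbol from the 32883 genes of the deposited table, where each symbol had 1 row. The tissue was the cortical collecting duct of the rat, the tubule segment that sets the final water, salt and acid content of urine.

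The animals were pathogen-free male Sprague-Dawley rats, and the ducts were dissected by hand 3 h after an injection into the peritoneum. One group received lipopolysaccharide (LPS), a component of the bacterial cell wall, and the Vehicle group received normal saline. Each group had 3 numbered samples and each sample had 3 libraries, 18 in all, and the design text calls the groups paired. The labels give neither the animals' age nor the LPS dose, and they do not say what the 3 libraries of a sample, or the 2 samples of a pair, share. The replicate in every test was therefore the numbered sample. The p-values rest on how far these samples spread, part of which may be technical, and for limma also on the variance of the other tested genes.

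The 8 genes cover several parts of macrophage biology. Lyz2 encodes lysozyme, which cuts bacterial cell walls, and Cd68 encodes a glycoprotein of late endosomes and lysosomes. Fcer1g encodes the signalling gamma chain shared by several receptors for antibody Fc parts. C1qa, C1qb and C1qc encode the A, B and C chains of C1q, the recognition part of the first component of the classical complement pathway, which tissue macrophages make. Csf1r encodes the receptor for the growth factors CSF1 and IL-34, on which most tissue macrophages depend. Adgre1 encodes an adhesion receptor known in the mouse as F4/80; the deposited annotation line describes its row as adhesion G protein-coupled receptor E2.

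The sequences just before 4 of the gene starts are shown because PU.1, an ETS-family factor that binds purine-rich DNA, is a known regulator of macrophage genes. C1qb, C1qc and C1qa lie next to each other, in that order, on chromosome 5 of the RefSeq annotation of GRCr8. Of the 8 genes, 6 had a promoter entry there, and the 250 bases before the start are printed for C1qb, C1qa, Lyz2 and Adgre1, 5′ to 3′ on the gene's strand. Capitals mark GAGGAA or GGAAGT, or their reverse complements, a pair of ETS-type words that overlap where the last 4 bases of one are the first 4 of the other. The expression values come from another build, Rnor_6.0, and no value below uses these coordinates.
C1qb, chr5:154407828-154408077, minus strand: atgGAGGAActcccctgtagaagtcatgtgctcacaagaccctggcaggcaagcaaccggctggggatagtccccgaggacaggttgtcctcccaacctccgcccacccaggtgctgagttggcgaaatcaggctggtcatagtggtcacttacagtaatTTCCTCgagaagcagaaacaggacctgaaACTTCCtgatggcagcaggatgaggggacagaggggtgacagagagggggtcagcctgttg
C1qa, chr5:154419934-154420183, minus strand: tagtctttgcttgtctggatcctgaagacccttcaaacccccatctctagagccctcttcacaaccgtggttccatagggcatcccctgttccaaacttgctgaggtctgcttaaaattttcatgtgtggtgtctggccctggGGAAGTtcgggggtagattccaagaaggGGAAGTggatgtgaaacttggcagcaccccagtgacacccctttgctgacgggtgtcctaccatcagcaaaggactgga
Lyz2, chr7:54798012-54798261, minus strand: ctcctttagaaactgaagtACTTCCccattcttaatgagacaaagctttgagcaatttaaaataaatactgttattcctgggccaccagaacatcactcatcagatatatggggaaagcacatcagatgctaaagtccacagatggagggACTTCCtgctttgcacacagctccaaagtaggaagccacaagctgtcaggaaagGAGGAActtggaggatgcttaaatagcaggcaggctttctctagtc
Adgre1, chr9:2329190-2329439, plus strand: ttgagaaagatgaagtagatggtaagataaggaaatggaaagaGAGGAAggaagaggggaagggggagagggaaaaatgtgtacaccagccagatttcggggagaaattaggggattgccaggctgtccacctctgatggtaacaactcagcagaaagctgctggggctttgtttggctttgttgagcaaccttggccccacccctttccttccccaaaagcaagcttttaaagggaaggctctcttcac

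GAGGAA was present on either strand in 5 of the 6 promoters of the set that had an entry, against 23.3% of 33469 rat promoters of the same length. GGAAGT was present in 4 of the 6, against 19.2% of those promoters. A match describes the letters of the window and is not a measured binding site.

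Values are TPM, transcript abundances that correct for transcript length and are scaled to the same total in every library. TPM keeps no read number, so the depth of each library is unknown and counting error cannot be given. Libraries listed 11399 to 12704 genes at 1 TPM or more, and the 3 libraries of a sample correlated at r = 0.949 to 0.979 over log2(TPM + 1), against a median of 0.872 between Vehicle and LPS libraries. Principal cell markers of the collecting duct were high in all samples. The summed level of 12 such markers, led by the water channel gene Aqp2, was 16800 to 18300 TPM in the Vehicle samples and 9520 to 13100 TPM in the LPS samples. Markers of the distal convoluted and connecting tubule were uneven, at 229 to 5880 TPM in the Vehicle samples and 133 to 655 TPM in the LPS samples. Of these, Calb1 had 4940, 64.8 and 129 TPM in Vehicle samples 1 to 3. The part of such segment differences in the results was not tested. Against the principal cell markers, the 8 macrophage genes summed to 224, 101 and 160 TPM in Vehicle samples 1 to 3 and to 397, 215 and 169 TPM in LPS samples 1 to 3. In such bulk samples, a smaller number of cells and less RNA per cell cannot be told apart.

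Changes with LPS were tested with limma on log2(TPM + 1), averaged over the libraries of each sample, with the sample number as a block, among the 12393 genes whose mean over all libraries reached 1 TPM. A gene was called at a Benjamini-Hochberg adjusted p under 0.05. All 8 macrophage genes passed the filter, and each reached 1 TPM on average in both groups. Of the 8, Fcer1g, C1qa and Adgre1 were called higher and Csf1r was called lower after LPS, while Lyz2, Cd68, C1qb and C1qc were not called. Among all tested genes, 7.17% were called higher, 22.2% lower and 29.4% either way. The median change of the 8 was 0.99 on the log2(TPM + 1) scale, against -0.38 over all tested genes. Under median-ratio scaling of the libraries that all-gene median was -0.02 and the split of calls moved from 889 higher and 2757 lower to 821 higher and 460 lower.

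**Figure D1:**
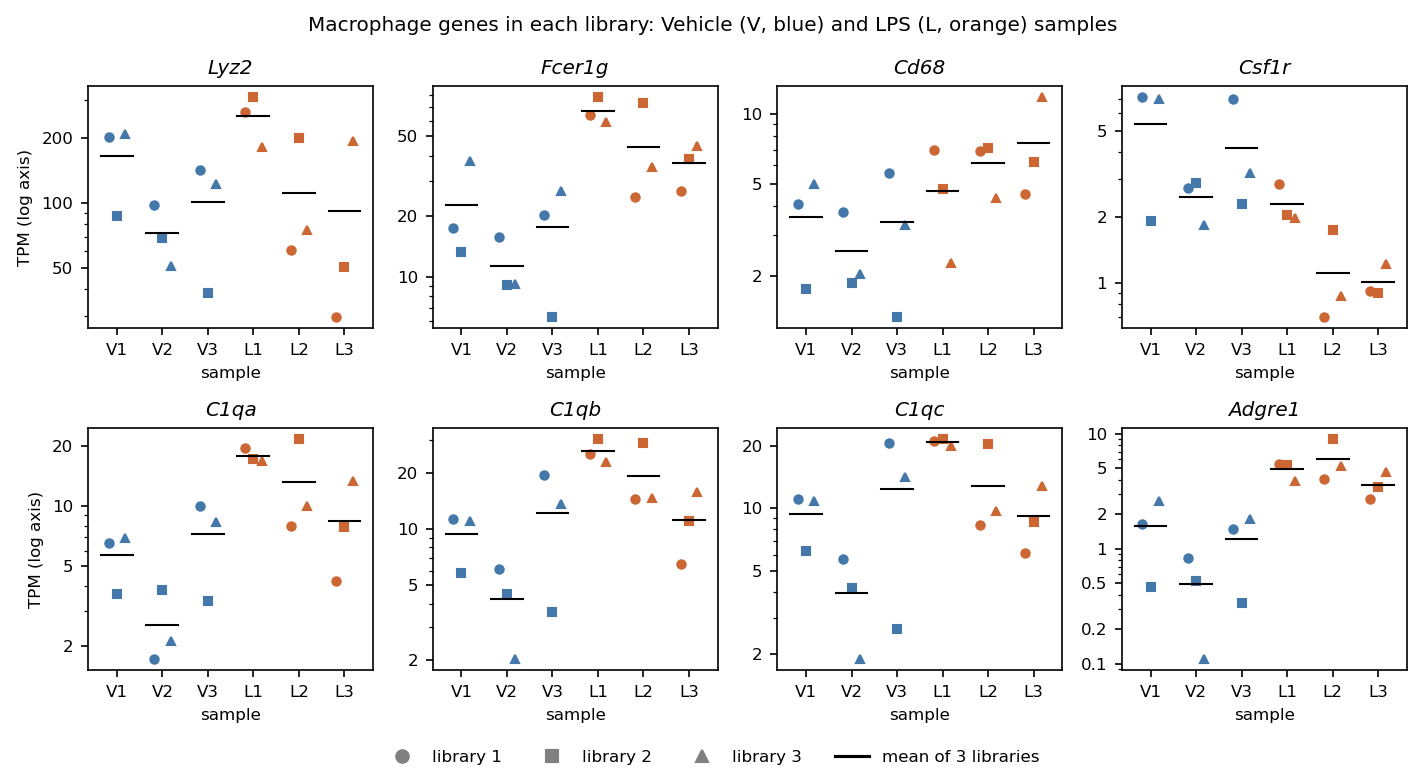
TPM (log axis) of each of the 8 macrophage genes in the 18 libraries, grouped by Vehicle (V, blue) and LPS (L, orange) sample; symbols give the library number and black lines the mean of 3 libraries. Adgre1 had 0.11 to 2.61 TPM in the Vehicle libraries and 2.71 to 9.0 TPM in the LPS libraries, and Csf1r is the gene with lower sample means after LPS.

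**Figure D2:**
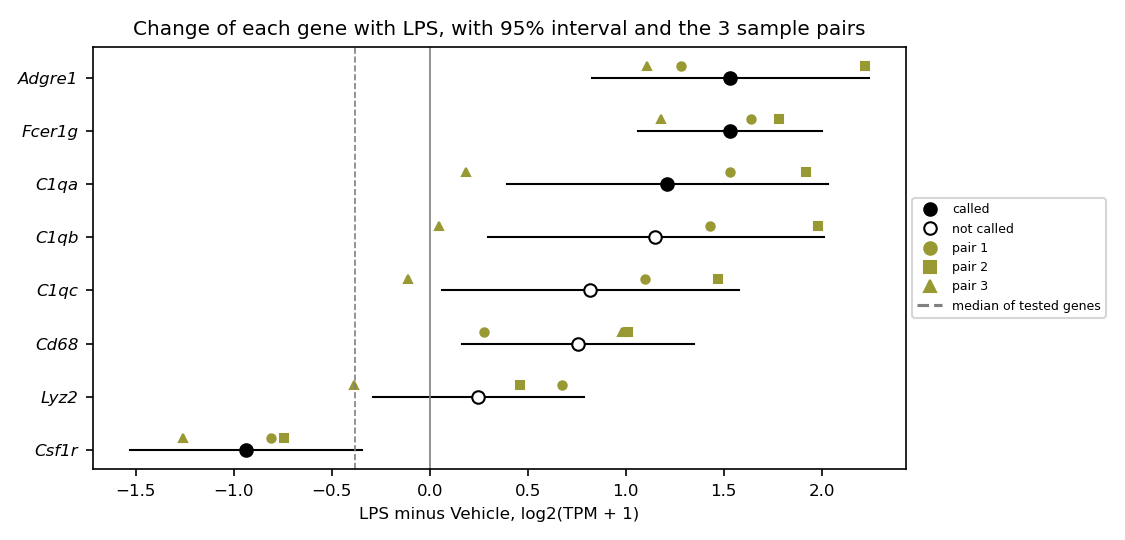
Change with LPS for each gene on the log2(TPM + 1) scale, with limma's 95% interval (line), the 3 sample pairs (olive symbols) and the median of all tested genes (dashed line, -0.38). Filled circles mark the 4 called genes, of which Csf1r (-0.94) is the one below 0.

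Lyz2 was the most abundant of the 8, in every library. Its sample means were 166, 72.9 and 101 TPM in Vehicle samples 1 to 3 and 253, 112 and 91.8 TPM in LPS samples 1 to 3. The groups overlapped, and the third pair went the other way from the first and the second. The change was 0.25 ± 0.23 (SE, n = 3; 95% interval -0.29 to 0.79), with a limma adjusted p of 0.405. Single libraries of Lyz2 differed widely within a sample: the 3 libraries of LPS sample 3 had 29.6, 50.7 and 195 TPM, a 6.58-fold range. Without the library at 195 TPM the change was -0.01. The deposited table also lists the lysozyme paralog Lyc2, which reached at most 0.45 TPM; how reads were divided between the near-identical genes is uncertain.

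Cd68 was lower in abundance than Lyz2. It averaged 3.61, 2.56 and 3.40 TPM in the Vehicle samples and 4.66, 6.12 and 7.49 TPM in the LPS samples, and these sample means did not overlap. It did not pass the test, with a change of 0.76 ± 0.25 (SE, n = 3; interval 0.16 to 1.35) and a limma adjusted p of 0.0588. Without the sample number as a block the adjusted p was 0.0337.

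Lysosomal genes are expressed by most cells, duct cells included. Of 19 tested genes of a lysosomal list that includes Cd68, 5 were called higher and none lower, beside 7.17% and 22.2% of all tested genes. The median change of the 19 was 0.07, against -0.38 over all tested genes. The called ones were the tetraspanin gene Cd63, the membrane protein gene Lamp2 and the protease genes Ctsd, Ctss and Lgmn. Cathepsin S, made by antigen-presenting cells, is the low-abundance one among them: Ctss had 4.77, 3.21 and 6.76 TPM in the Vehicle samples and 12.9, 17.9 and 17.6 TPM in the LPS samples, a change of 1.62 with a limma adjusted p of 0.00856. Ctsd, in contrast, went from 3360 ± 159 to 5680 ± 955 TPM (SD, n = 3).

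Fcer1g rose in all 3 pairs. Its sample means were 22.9, 11.4 and 17.8 TPM in the Vehicle group and 67.1, 44.5 and 36.7 TPM in the LPS group. Every LPS sample was above every Vehicle sample, and the group means differed 2.85-fold. The change was 1.53 ± 0.20 (SE, n = 3), with a limma adjusted p of 0.00491, and it stayed called when any 1 of the 18 libraries was left out. Without sample number 3 in both groups, where 2 samples a group remained and no gene of the table was called, its adjusted p was 0.197. Fcer1g also encodes the gamma chain of the IgE receptor of mast cells. The 6 mast cell and basophil markers in the table all had a mean under 1 TPM and summed to 0.05 to 0.377 TPM in the Vehicle samples and 0.01 to 0.32 TPM in the LPS samples, with Fcer1a at 0 in all 3 Vehicle samples and Tpsb2 at 0 in all libraries; their part in the Fcer1g level was not tested.

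Some of the genes that act with the gamma chain were called higher and others were not. Of 7 tested genes in a list of Fc receptors, adaptors and kinases that were at 1 TPM or more in both groups, 4 were called higher and none lower, Fcer1g itself being 1 of the 4, beside 7.17% of all tested genes called higher. Among the 3 of the 7 not called, the kinase gene Lyn had a change of 0.36 and the phospholipase gene Plcg2 one of -0.45. The antibody receptor gene Fcgr2a had 3.54, 1.91 and 2.57 TPM in the Vehicle samples and 17.8, 12.2 and 13.8 TPM in the LPS samples, a change of 2.03 (limma adjusted p = 0.00199). Fcgr3a, whose receptor signals through the gamma chain, rose by 1.68 (adjusted p = 0.00813, limma), and the related adaptor gene Tyrobp by 0.85 (adjusted p = 0.0282, limma). Fcgr2b and Lcp2 were called too, but they entered the test only through their LPS levels. The high-affinity receptor gene Fcgr1a went from 1.36 ± 0.457 to 0.898 ± 0.587 TPM (SD, n = 3) and was not called.

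The 3 C1q genes were at similar levels and gave similar, uneven changes. C1qa averaged 5.71, 2.55 and 7.24 TPM in Vehicle samples 1 to 3 and 17.8, 13.2 and 8.46 TPM in LPS samples 1 to 3. C1qb averaged 9.37, 4.20 and 12.2 TPM in the Vehicle samples and 26.1, 19.3 and 11.1 TPM in the LPS samples. C1qc averaged 9.41, 3.93 and 12.4 TPM in the Vehicle samples and 20.8, 12.8 and 9.16 TPM in the LPS samples. LPS samples 1 and 2 were above all Vehicle samples for each of the 3 genes, while LPS sample 3 fell inside the Vehicle range for C1qb and C1qc.

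C1qa passed the test with a change of 1.21 ± 0.35 (SE, n = 3) and a limma adjusted p of 0.0405, C1qb missed it with 1.15 ± 0.36 and an adjusted p of 0.0516, and C1qc missed it with 0.82 ± 0.32 and an adjusted p of 0.0886. The C1qa call depended on single libraries. It held in 5 of the 18 fits that left out 1 library, and its adjusted p was 0.0527 under median-ratio scaling and 0.162 to 0.240 when 1 sample number was left out of both groups. By pair, the C1qa difference was 1.53, 1.92 and 0.18 for sample numbers 1, 2 and 3. For C1qb it was 1.43, 1.98 and 0.05, and for C1qc 1.10, 1.47 and -0.11. Vehicle sample 3 had the most uneven libraries for summed C1q, a 5.18-fold range with the lowest value, 9.65 TPM, in library 2. Without its second library, the C1qa change was 1.08 (adjusted p = 0.110) and the C1qb change 0.94 (adjusted p = 0.183), by limma.

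Of the other classical complement genes at 1 TPM or more in both groups, C1r alone was called. C1r, a protease that C1q activates, had 2.52, 1.33 and 1.97 TPM in the Vehicle samples and 17.3, 24.2 and 26.5 TPM in the LPS samples, a change of 3.01 with a limma adjusted p of 0.00118. In the pathway list, 9 tested genes were at 1 TPM or more in both groups, and 2 of them, C1qa and C1r, were called higher and none lower, beside 7.17% and 22.2% of all tested genes. C1s, the partner protease, and Serping1, which inhibits both proteases, were called higher and entered the test through their LPS levels. Serping1 went from 0.728 ± 0.359 to 54.3 ± 37.3 TPM (SD, n = 3), with 12.3 TPM in LPS sample 1 and 83.3 and 67.5 TPM in LPS samples 2 and 3. That order is not the order of C1q, which was highest in LPS sample 1. None of 3 tested C1q receptor and binding protein genes was called by limma at the adjusted threshold.

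Csf1r was the gene of the 8 that fell. Its sample means were 5.35, 2.48 and 4.16 TPM in the Vehicle group and 2.30, 1.11 and 1.02 TPM in the LPS group, so that every LPS sample was below every Vehicle sample. The mean went from 4.0 ± 1.44 to 1.48 ± 0.716 TPM (SD, n = 3), and the change was -0.94 ± 0.25 (SE), with a limma adjusted p of 0.0356. The fall was present in all 3 pairs, at -0.81, -0.74 and -1.26. It is to be read beside the all-gene median of -0.38: under median-ratio scaling the change was -0.67 (limma adjusted p = 0.0813) and under quantile normalization -0.57 (adjusted p = 0.0990), neither called. Leaving out library 1 of Vehicle sample 1, at 7.12 TPM, gave -0.85 and an adjusted p of 0.0610, and leaving out sample number 2 or 3 in both groups gave 0.133 and 0.272.

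The ligand of the receptor moved the opposite way. Csf1 had 1.04, 0.760 and 0.847 TPM in the Vehicle samples and 15.2, 9.36 and 14.1 TPM in the LPS samples, a change of 2.85 with a limma adjusted p of 0.000906, and entered the test through its LPS level. Il34, the gene of the second ligand, was at 1.63 ± 1.11 and 1.91 ± 0.169 TPM (SD, n = 3) and was not called. Of the 7 tested genes of this axis at 1 TPM or more in both groups, 2 were called lower, Csf1r and the kinase subunit gene Pik3r1, and none higher. Among all tested genes, 22.2% were called lower and 7.17% higher. Cx3cr1, a chemokine receptor gene of resident kidney macrophages picked out after its values were seen, was also lower after LPS. It had 3.00, 1.13 and 1.52 TPM in the Vehicle samples and 0.047, 0.027 and 0.107 TPM in the LPS samples. It was below the filter, and in the fit without a filter, where few genes were called, its change was -1.33 with a limma adjusted p of 0.0960.

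Adgre1 was the least abundant of the 8 in the Vehicle group and had the largest ratio between group means, 4.45. It averaged 1.58, 0.490 and 1.21 TPM in the Vehicle samples and 4.91, 6.08 and 3.61 TPM in the LPS samples. Its 9 Vehicle libraries ran from 0.11 to 2.61 TPM and its 9 LPS libraries from 2.71 to 9.0 TPM. Libraries are not replicates here, and how many of all tested genes were as separate was not counted. The change was 1.53 ± 0.30 (SE, n = 3), with a limma adjusted p of 0.0168, and it remained called when any 1 of the 18 libraries was left out. Without sample number 2 or 3 in both groups the adjusted p was 0.0867 and 0.238. Adgre5, the other tested gene of the family, was at 1.38 ± 0.628 and 1.71 ± 0.607 TPM (SD, n = 3) and was not called.

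The order of the 8 genes by level was similar in both groups except for the receptors. In the Vehicle group it ran Lyz2, Fcer1g, C1qb, C1qc, C1qa, Csf1r, Cd68, Adgre1. C1qb and C1qc did not differ beyond their spread there, with C1qb above C1qc in 1 of 3 samples, and Csf1r was above Cd68 in 2 of 3. After LPS, Csf1r stood last, below Adgre1 in 9 of 9 libraries. Neighbours without a constant order after LPS were C1qc and C1qa, with C1qc higher in 2 of 3 samples, and Cd68 and Adgre1, with Cd68 higher in 2 of 3.

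Because all 8 genes are used as markers of macrophages, each was also set against C1qb in the same sample. The Csf1r level was 0.570, 0.591 and 0.340 of the C1qb level in the Vehicle samples and 0.0882, 0.0575 and 0.0913 of it in the LPS samples. The mean log2 ratio fell by 2.65, and the groups did not overlap. The Adgre1 ratio went the other way, from 0.168, 0.117 and 0.0989 to 0.188, 0.315 and 0.324, a rise of 1.10 in the mean log2 ratio without overlap. Between the C1q chains the shifts were small but also did not overlap: C1qc was at 1.00, 0.936 and 1.01 of C1qb in the Vehicle samples and at 0.798, 0.662 and 0.823 in the LPS samples, while C1qa went from 0.609, 0.606 and 0.592 to 0.684, 0.684 and 0.760.

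Each of these 4 ratios had p = 0.1 in a two-sided exact permutation test over the 20 possible assignments of the group labels. That is the smallest p that 3 samples against 3 can give in this test, which did not use the pairing by sample number. Over the 7 ratios compared, the Benjamini-Hochberg value was 0.175, so no ratio passed a threshold of 0.05 and none could have. The ratios of Lyz2 (p = 0.2), Fcer1g (p = 0.5) and Cd68 (p = 0.8) to C1qb overlapped between the groups in the same exact permutation test. In single libraries the chains were less regular: C1qa was 0.281 to 1.05 of C1qb over the Vehicle libraries and 0.545 to 0.842 over the LPS libraries.

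**Figure D3:**
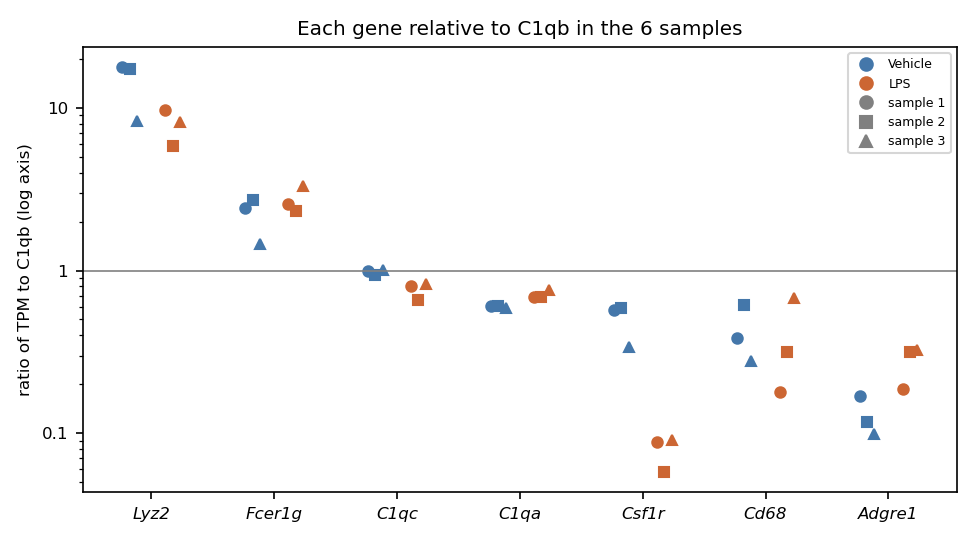
TPM of each of the other 7 genes divided by TPM of C1qb (log axis) in the 3 Vehicle (blue) and 3 LPS (orange) samples; symbols give the sample number. The Csf1r ratio lies between 0.340 and 0.591 in Vehicle and between 0.0575 and 0.0913 in LPS samples, and the Adgre1 ratio lies higher in LPS samples.

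Libraries of the same sample differed in these genes more than most genes did. The pooled standard deviation between libraries of a sample was 0.47 (Adgre1) to 0.88 (Lyz2) on the log2(TPM + 1) scale, with a median of 0.61 over the 8 genes against 0.21 over all tested genes. Each of the 8 varied more between libraries than 90% to 95.7% of tested genes, and more than the median of genes of like level, which was 0.13 to 0.28. The standard deviation between samples of a group had a median of 0.52 over the 8 genes and 0.25 over all tested genes. Summed C1q differed 5.18-fold between the highest and the lowest library of Vehicle sample 3 and 1.16-fold between those of LPS sample 1.

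The 8 genes were high or low together in single libraries. Library 2 of Vehicle sample 1 and library 2 of Vehicle sample 3 had the lowest level of their sample for all 8 genes. In Vehicle sample 3 that library had 38.2 TPM of Lyz2 beside 143 and 122 TPM in the other two, and 2.66 TPM of C1qc beside 20.5 and 14.1 TPM. Library 2 of LPS sample 2 and library 3 of LPS sample 3 had the highest level of their sample for all 8 genes. In LPS sample 2 that library had 73.5 TPM of Fcer1g beside 24.9 and 35.2 TPM. The order was not the same for all 8 genes elsewhere: in Vehicle sample 2 library 1 was highest for 6 of the 8 and library 3 lowest for 5, and in LPS sample 1 library 1 was highest for 4 and library 3 lowest for all 8.

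**Figure D4:**
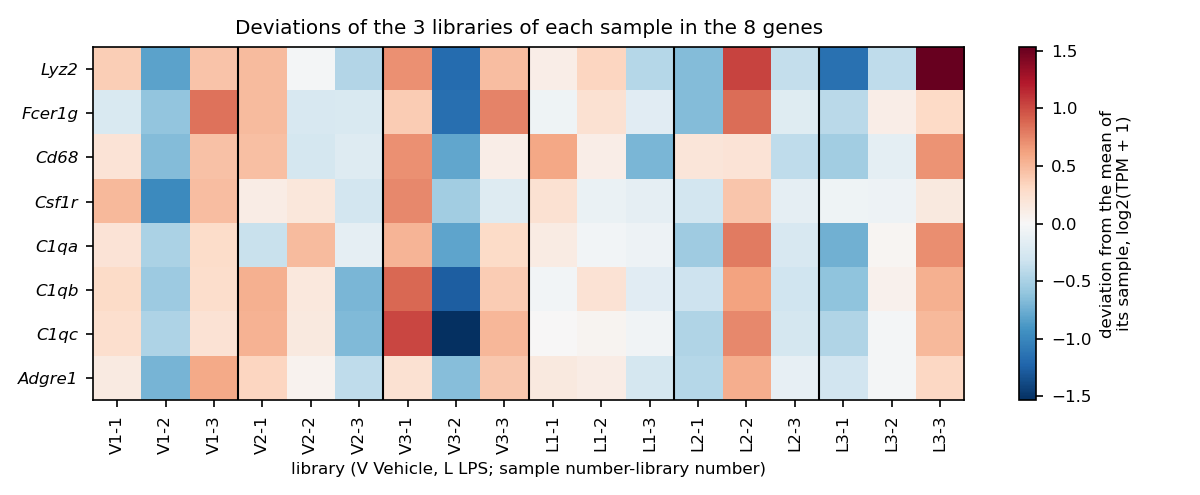
Deviation of each library from the mean of its sample, on the log2(TPM + 1) scale (red above, blue below), for the 8 genes in the 18 libraries; black lines separate samples. Library 2 of Vehicle samples 1 and 3 is blue in all 8 rows, and library 2 of LPS sample 2 and library 3 of LPS sample 3 are red in all 8.

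Over the 18 libraries, deviations from the sample mean correlated between any 2 of the 8 genes at Pearson r = 0.614 to 0.983, with a median of 0.798 over 28 pairs. These values are descriptions: what the libraries of a sample share is unknown, and TPM values of a library share a fixed total. C1qb and C1qc were the closest pair, at 0.983, and Fcer1g and Adgre1 reached 0.921, while Fcer1g and Csf1r were the least alike, at 0.614. Ranked among 12393 genes by likeness to the mean of the 3 C1q genes, Lyz2 came 6th, Adgre1 11th, Fcer1g 15th, Csf1r 39th and Cd68 47th. C1qb, C1qc and C1qa, which are part of that mean, held places 1, 2 and 7.

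The 10 other genes most like C1q are all known as leukocyte genes. They were Aif1 (r = 0.940), Cd74 (0.933), Cd53 (0.920), Pld4 (0.904), Cybb (0.895), Tyrobp (0.885), Cd4 (0.864), Ccl6 (0.863), Laptm5 (0.842) and Clec4a1 (0.835). Aif1 encodes the macrophage protein also called IBA1, Cd74 the invariant chain of MHC class II and Cybb the catalytic subunit of the phagocyte NADPH oxidase. Rat macrophages are known to express Cd4. With LPS, 4 of the 10 were called higher by limma and none lower, beside 7.17% and 22.2% of all tested genes. These were Cd74 by 0.78 (limma adjusted p = 0.0188), Cd53 by 0.97 (0.0296), Cybb by 1.00 (0.0288) and Tyrobp by 0.85 (0.0282). The other 6 were not called, with changes from -0.55 for Pld4 to 0.39 for Aif1. Without library 2 of Vehicle sample 3, 4 of these 10 genes were still among the 10 most like C1q, without LPS sample 3 there were 6, in the Vehicle libraries alone 5 and in the LPS libraries alone 0.

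Lists of cell type markers differed in how they followed C1q among libraries. The median r was 0.74 over 15 tested genes of other mononuclear phagocyte markers and 0.72 over 6 pan-leukocyte genes, against 0.03 over all tested genes. It was 0.05 for 12 principal cell markers, 0.10 for 12 intercalated cell markers, -0.24 for 5 proximal tubule markers and -0.14 for 7 thick ascending limb markers. Endothelial markers had a median r of 0.83 over the 9 LPS libraries and -0.29 over the 9 Vehicle libraries, and each of the 9 tested genes had the higher r among LPS libraries; this difference was not tested. Genes of the macrophage response to LPS had a median r of 0.57 over the LPS libraries and 0.08 over the Vehicle libraries. Among LPS libraries Il1b had r = 0.758 and Ccl4 r = 0.755.

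**Figure D5:**
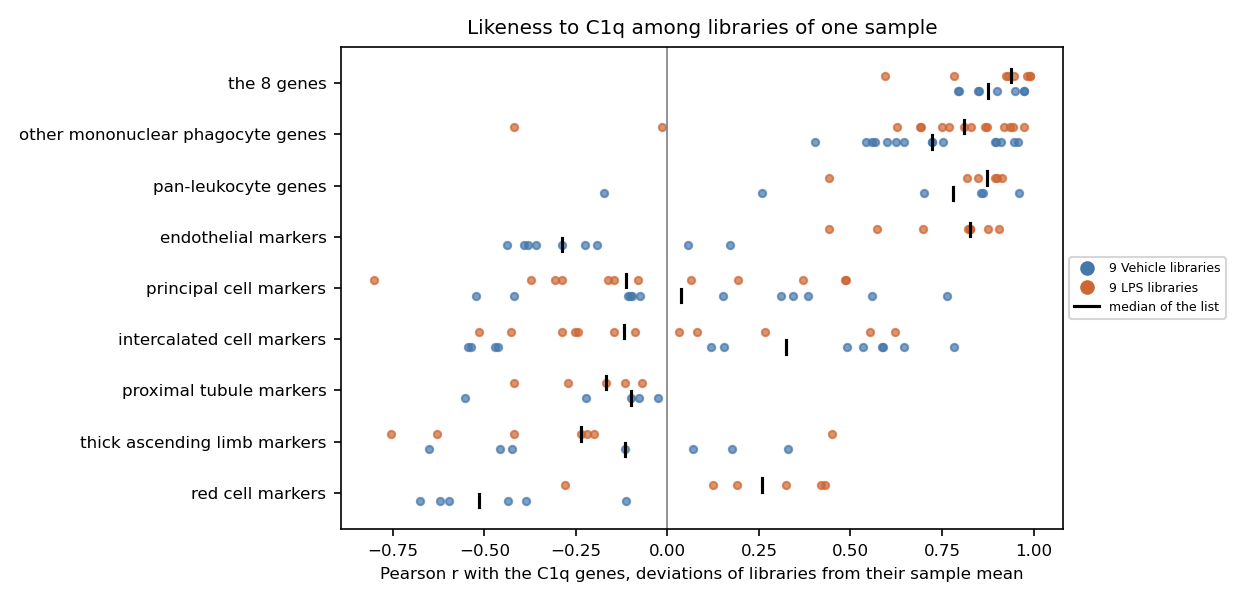
Pearson r of each tested gene of a marker list with the mean of the 3 C1q genes, from deviations of libraries from their sample mean, over the 9 Vehicle (blue) and the 9 LPS (orange) libraries; black bars are list medians. The endothelial medians are 0.83 in LPS and -0.29 in Vehicle libraries, while the phagocyte medians are 0.81 and 0.72.

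Other phagocyte markers showed which macrophage transcripts were present. In the list of 30 other mononuclear phagocyte genes, 28 were in the table and 15 were tested. Marco and Vsig4, genes of marginal-zone and liver macrophages, were listed at 0 in every library, and the resident macrophage genes Cd163, Mrc1 and Siglec1 were at most 0.293 TPM in any sample mean. Among the 11 tested genes at 1 TPM or more in both groups, 7 were called higher and 1 lower, beside 7.17% and 22.2% of all tested genes. Cd14, the LPS co-receptor gene, went from 14.4, 16.4 and 11.2 to 21.0, 43.2 and 28.3 TPM (change 1.03, limma adjusted p = 0.0225). Clec10a, a lectin gene, went from 1.65, 0.920 and 2.10 to 10.6, 6.75 and 7.63 TPM (change 1.76, limma adjusted p = 0.00800). This list shares Tyrobp and the Fcgr genes, among others, with the Fc receptor list.

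Of the inflammatory genes that macrophages switch on after LPS, some were high in the LPS samples and others had a mean under 1 TPM over all libraries. Il1b, the interleukin-1 beta gene, had 2.03, 0.223 and 1.10 TPM in the Vehicle samples and 70.9, 29.3 and 30.4 TPM in the LPS samples, and the chemokine gene Ccl4 had 2.53, 0.347 and 0.180 TPM and then 69.1, 34.7 and 17.8 TPM. Both were called higher by limma (adjusted p = 0.000389 and 0.000357). LPS sample 1, the highest for summed C1q, was also the highest for Il1b, Ccl4 and Ccl3. It was the lowest of the LPS samples for Cd40, Socs3, Il6, Cxcl2 and Acod1, and Il1rn was highest in LPS sample 3. Cd40, for example, had 20.2, 78.2 and 102 TPM in LPS samples 1 to 3. The list was therefore split. Ccl4 and Ccl3 (21.4, 11.7 and 4.57 TPM in LPS samples 1 to 3) had the order of summed C1q among the LPS samples, and its other tested genes did not. Of the 17 genes of this list in the table, 9 were tested and all 9 were called higher, beside 7.17% of all tested genes. Of the 9, 6 entered through their LPS level. The other 8 genes had a mean under 1 TPM and were not tested, with Tnf listed at 0 in every library.

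Markers of other cells moved too, and their part in the changes of the 8 genes was not tested. Of 12 neutrophil markers, 10 had a mean under 1 TPM, and the list summed to 0.127 to 0.830 TPM in the Vehicle samples and 2.29 to 88.4 TPM in the LPS samples. The neutrophil gene S100a8 was listed at 0 in all 3 Vehicle samples and had 2.42, 0.373 and 30.8 TPM in the LPS samples, so that LPS sample 3, the lowest for summed C1q among the LPS samples, was the highest for S100a8. The general leukocyte gene Ptprc, picked out after its values were seen, went from 0.831 ± 0.421 to 1.14 ± 0.319 TPM (SD, n = 3) and was not tested. Of 6 tested pan-leukocyte genes 2 were called higher, Rac2 and Cd53, and none lower, and the list summed to 79.2 to 143 TPM in the Vehicle samples and 72.4 to 136 TPM in the LPS samples. Endothelial markers summed to 23.2 to 103 TPM and 36.2 to 93.5 TPM. Of the 12 principal cell markers, 9 were called lower and none higher. Among all tested genes, 22.2% were called lower and 7.17% higher. Under median-ratio scaling 2 of the 12 principal cell markers were called lower, and under quantile normalization 7.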

How the data were processed

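RNA from microdissected ducts was reverse-transcribed, amplified and tagmented with low-input kits, per the labels' protocols. The deposited table holds TPM values by the authors, 1 column per library; the submitters' processing notes name STAR 2.7.9a, RSEM 1.3.3 and Rnor_6.0. No source used here names the gene annotation or a filter.

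Samples were grouped by title. Log2(TPM + 1) was averaged over the 3 libraries of a sample and fitted with limma 3.58.1 (R 4.3.3; trend, sample number as a block, 2 residual and 4.97 prior degrees of freedom) for the 12393 genes whose mean reached 1 TPM, two-sided, after tests on simulated data. The 20490 other genes were not tested. Pairing came from the design text; same-numbered deviations correlated at 0.062, -0.018 and 0.069. No 2 libraries were identical. Likeness used deviations of libraries from their sample mean. Ratios were tested by exact permutation with scipy 1.17.1.

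Named genes are the 8, the called or 4 most abundant genes of each list described, and the 10 most like C1q. Fcgr1a, Il34, Cd163, Mrc1, Siglec1, Marco, Vsig4, Tnf, Tpsb2, Cx3cr1 and Ptprc were named outside this rule, after their values were seen; some genes of the lists, called ones included, are not reported here. The 8 genes and all lists were chosen with earlier results of these data known. Alternatives changed the block, summary over libraries, pseudocount, filter, scaling, variance model and samples. Leaving out each of 17 further libraries, and the likeness without library 2 of Vehicle sample 3 or in either group alone, were added after seeing the data.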

Additional observations from a re-analysis of the deposited data

How the results depend on the processing

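Fcer1g, Adgre1, C1qa, C1qb, C1qc and Cd68 were higher and Csf1r lower after LPS in every fit run, but calls were less stable. Of the 8 genes, no gene was called higher and none lower with the median over libraries or with no filter (1019 and 4167 genes of the table had an unadjusted p under 0.05 in limma with the median, 1382 and 5352 with no filter). None of the 8 was called lower with a filter of 5 TPM, which removes Csf1r, Adgre1 and Cd68, under median-ratio scaling, under quantile normalization or without library 1 of Vehicle sample 1. Leaving out 1 sample number in both groups gave 0 to 3 of the 8 called higher and 0 to 1 called lower, and leaving out 1 library gave 2 to 4 and 0 to 1. Without the replicate block, 4 of the 8 were called higher and 1 lower, since Cd68 was added. Over all tested genes, 889 were called higher and 2757 lower. These counts were 0 and 0 with the median over libraries, 18 and 2 with no filter, and ranged from 0 to 1004 higher and 0 to 3595 lower when 1 sample number was left out, both being 0 without number 3 (738 and 1463 at an unadjusted p under 0.05, limma). Leaving out 1 library gave 708 to 868 higher and 1639 to 3157 lower, with 1639 without library 1 of Vehicle sample 1, 1699 and 1697 without library 1 or 2 of Vehicle sample 3 and 1803 without library 3 of LPS sample 2. Genes called lower numbered 5295 with all libraries and an estimated correlation, 460 under median-ratio scaling and 579 under quantile normalization. The Lyz2 change turned to -0.25 with the median over libraries and to -0.0073 without library 3 of LPS sample 3. The median r between the 8 genes was 0.889 in the LPS samples alone, beside 0.798. Of the 10 genes most like C1q, 0 were kept in the LPS samples alone, 5 in the Vehicle samples alone and 6 without LPS sample 3. The cause was not tested in any of these. With 3 samples a group and depth unknown, levels near 1 TPM, such as Adgre1 in Vehicle and Csf1r in LPS samples, rest on values of unknown counting error.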
